A study of Drosophila melanogaster with 9 samples.

Results

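An antibody pulldown of the RNA helicase Aramis from fly ovaries was compared with the ovary lysate it was made from, to see which mRNAs were over- or under-represented in the pulldown across gene functions. The comparison rested on 6 of the 9 libraries of the series, chosen by their labels: 3 IP libraries and 3 Input libraries. Every ovary came from Drosophila melanogaster of 1 genotype, which carried aramis::GFP::FLAG, and was dissected 1 to 3 days after eclosion. IP was RNA recovered with an antibody against the FLAG tag, IgG was RNA recovered with control mouse IgG, and Input was 10% of the lysate kept back. All 3 kinds of library were poly(A)-selected and directional, and no untagged genotype was among them. The gene that encodes Aramis is ais, and the labels were followed where they name aramis and the series description names Larp. The labels do not say whether replicates were separate dissections, and p-values then measure the spread between these libraries, which may be technical.

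In RNA immunoprecipitation a protein is pulled out of a lysate and the RNA that comes with it is sequenced beside the lysate, so a difference between IP and Input is a difference in relative abundance and not an amount of binding. DEAD-box helicases such as Aramis are enzymes that remodel RNA and RNA-protein complexes, and several of them act in translation and in ribosome assembly. The fly ovary is made of strings of egg chambers, in which a germline cyst of nurse cells and 1 oocyte is wrapped by an epithelium of follicle cells that sit on a basement membrane. Much of oogenesis is run from stored mRNAs, and mRNAs for ribosomal proteins and translation factors often start with a stretch of pyrimidines that is read by translational regulators.

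Total counts were 35191953, 39549903 and 42062907 in IP libraries 1 to 3 and 42692128, 38995174 and 47080956 in Input libraries 1 to 3. At this depth 3 counts corresponded to between 0.0637 and 0.0983 CPM (counts scaled to library size with TMM factors) over the 9 libraries, and this floor covers counting error only. Defining genes of the ovary were present in every library. The summed level of 9 tested follicle cell markers was between 1226 and 1324 CPM in IP, 954 and 1017 CPM in IgG and 626 and 697 CPM in Input. The 12 germline markers summed to between 5096 and 5826 CPM in IP, 4927 and 5124 CPM in IgG and 5605 and 5966 CPM in Input. Muscle markers were uneven between replicates, at 198 to 1294 CPM in IP with replicate 1 the highest, 768 to 4010 CPM in IgG and 285 to 530 CPM in Input. Markers of fat body summed to no more than 79.7 CPM in IP and 26.9 CPM in Input, with Lsp1alpha and Fbp1 at 0 in IP, and those of neurons to no more than 7.39 CPM in IP and 4.37 CPM in Input. Hemocyte markers summed to between 154 and 179 CPM in IP and 253 and 272 CPM in Input, with He at 0. Nearly all of that sum was crq, at 153 to 177 CPM in IP and 252 to 271 CPM in Input. Hml, NimC1 and eater had no more than 1.78 CPM in any of these libraries. Testis markers summed to no more than 0.633 CPM in IP and 0.601 CPM in Input.

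**Figure D1:**
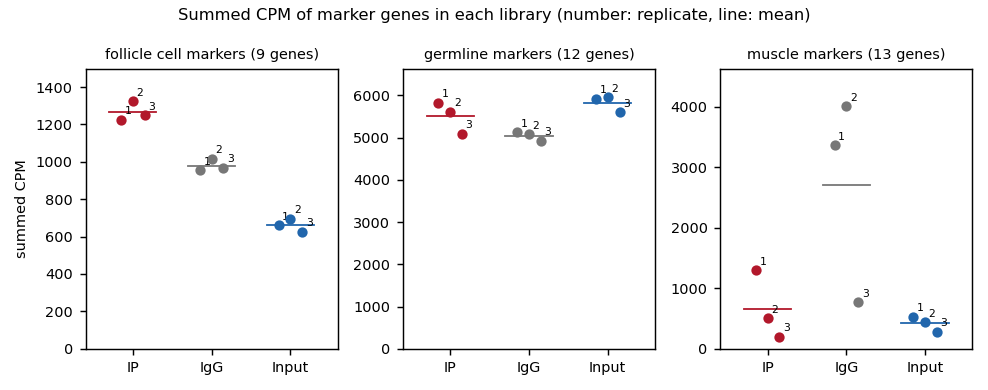
Summed CPM of follicle cell, germline and muscle marker genes (one panel each) in every IP, IgG and Input library, with the replicate number at each point and a line at the group mean. Follicle cell sums were 1226 to 1324 CPM in IP and 626 to 697 CPM in Input, germline sums overlapped between IP and Input, and muscle sums ran from 198 to 1294 CPM within IP.

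A large share of the ovary transcriptome differed between IP and Input. At a Benjamini-Hochberg adjusted p under 0.05 in edgeR's quasi-likelihood test, 5206 of 8789 genes passed (59.2%), with 2501 (28.5%) on the higher side and 2705 (30.8%) on the lower side in IP. These shares are the background for the counts of list members in IP against Input below. For IgG against Input the shares over all genes were 10.3% higher and 16.6% lower. For IP against IgG they were 4.77% higher and 3.20% lower. Most differences were moderate, since 698 of the genes called higher and 691 of those called lower changed by at least 2-fold. The CPM of the 3 IP libraries lay wholly above those of the 3 Input libraries for 32.3% of genes and wholly below for 34.4%. The median log2 fold change over all genes tested was 0.01. ais itself, the gene of the tagged protein, had 97.2, 77.4 and 70.4 CPM in IP libraries and 78.9, 77.8 and 80.2 CPM in Input libraries, which overlapped (log2 fold change 0.04, edgeR adjusted p = 0.749).

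To see which functions lay on each side, 50 lists of genes with a textbook role in 1 complex, pathway or process were described, with 1356 genes in all. The cytoplasmic ribosomal protein, mitochondrial and eggshell sets were left out. Each of the 50 lists held at least 1 gene called higher and at least 1 called lower in IP, and most medians were close to that of all genes. The list median was 0.25 or more on the log2 scale for 11 lists and -0.25 or less for 4. Basement membrane, spectrin and giant linker proteins, the EGFR pathway, JAK/STAT and Hedgehog signalling and chromatin regulators had the highest medians. Elongation and release factors, Sm and LSm proteins, ubiquitin E2 enzymes and translation initiation factors had the lowest.

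**Figure D2:**
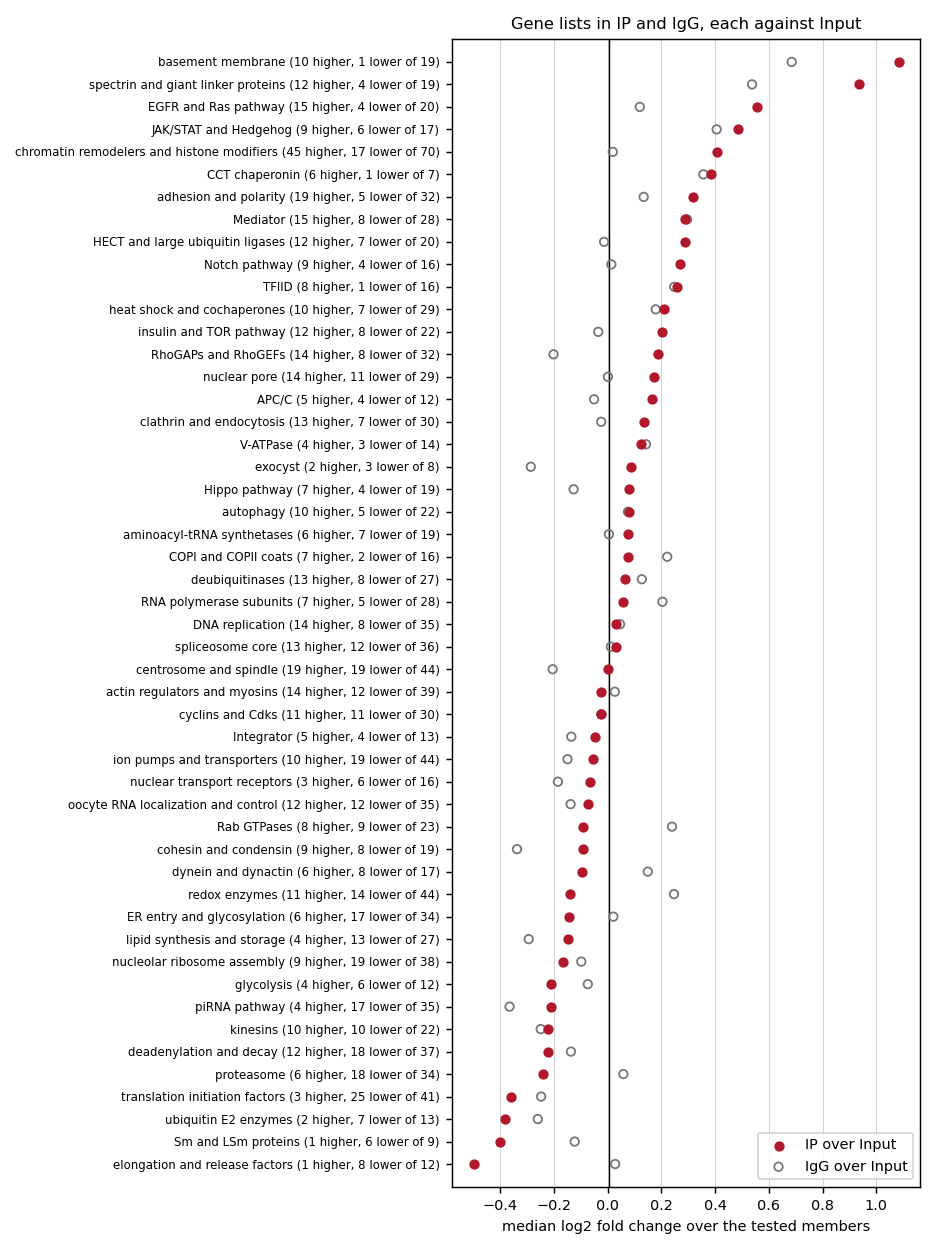
Median log2 fold change of the tested members of 50 gene lists, as IP over Input (filled points) and IgG over Input (open points), with the list name and its counts of members called higher and lower in IP at the left and a vertical line at the IP over Input median of all genes tested. The medians of IP over Input run from -0.50 for elongation and release factors to 1.08 for basement membrane.

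Genes of the follicular epithelium stood higher in IP. All 9 tested follicle cell markers were called higher, with a median log2 fold change of 1.16 and medians of 1.22, 1.01 and 1.14 in the replicate pairs 1, 2 and 3, against 0.01 for all genes. In IgG 5 of them were called higher than in Input, with a median of 0.55. The Maf-type transcription factor gene tj, which marks somatic cells of the ovary, had 281, 315 and 335 CPM in IP libraries 1 to 3, 211, 214 and 249 CPM in IgG and 157, 163 and 151 CPM in Input. Its IP values lay above every IgG and every Input value (IP over Input 0.98 ± 0.07 SE, edgeR adjusted p = 1.77e-06). peb, a zinc finger transcription factor gene of late follicle cells, had 117, 119 and 122 CPM in IP and 41.8, 43.4 and 37.01 CPM in Input without overlap (1.54 ± 0.07, adjusted p = 1.39e-07). Cad99C, a cadherin of the microvilli of follicle cells, had 191, 191 and 166 CPM in IP and 79.9, 77.9 and 65.0 CPM in Input, again without overlap (1.29 ± 0.09, adjusted p = 1.49e-06). IP was made from the lysate that Input sampled, so these values compare the relative recovery of RNAs and do not measure numbers of cells. The part of follicle cell mRNA as a whole in the lists that follow was not tested.

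The basement membrane list, which holds the collagen, laminin and enzyme genes of the sheet under the follicle cells, had the highest median of the 50, at 1.08. Among 19 genes 10 were called higher and 1 lower, and in IgG against Input 7 were called higher, with a median of 0.69. vkg, a collagen IV chain, had 679.6, 817 and 649.7 CPM in IP libraries, 285, 400.4 and 255 CPM in IgG and 158, 182 and 121 CPM in Input. The 3 groups did not overlap, and IP was the highest (IP over Input 2.22 ± 0.16, edgeR adjusted p = 1.72e-05). The other collagen IV chain, Col4a1, showed the same order, with 760.3, 881 and 745 CPM in IP, 383, 415 and 341 CPM in IgG and 221, 247 and 174 CPM in Input (1.89 ± 0.13, adjusted p = 2.42e-06). The 3 laminin chain genes were called higher together, LanA by 2.03, LanB1 by 1.48 and LanB2 by 1.48. Among enzymes of the matrix, the metalloprotease gene Mmp2 was higher by 1.08 and the collagen prolyl hydroxylase gene PH4alphaEFB by 0.41. The only gene called lower was Timp, an inhibitor of matrix metalloproteases, with 10.6, 13.2 and 8.84 CPM in IP and 17.2, 16.02 and 14.7 CPM in Input (-0.56, adjusted p = 0.0135). The groups of Timp did not overlap, but without Input replicate 1 its value was -0.49 and no longer passed the threshold (adjusted p = 0.067).

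Signalling lists of the egg chamber held more genes called higher than lower, with some components of each pathway lower. In the EGFR and Ras list, whose receptor patterns the follicular epithelium in response to the oocyte, 15 of 20 genes were called higher and 4 lower, with a median of 0.56. Leaving out Input replicate 2 reduced the genes called lower to 2. The receptor gene Egfr had 103.96, 105 and 91.1 CPM in IP libraries, 80.3, 74.1 and 42.2 CPM in IgG and 31.1, 36.2 and 25.5 CPM in Input, and no IP value overlapped either of the other groups (1.69 ± 0.12, edgeR adjusted p = 1.8e-06). The ligand gene spi was higher by 1.19, and the feedback inhibitors aos, kek1 and sty by 1.23, 1.52 and 1.42. Nf1, a GTPase-activating protein that turns Ras off, had the largest rise of the list, with 294, 301 and 308 CPM in IP and 78.0, 86.7 and 72.3 CPM in Input (1.93 ± 0.07, adjusted p = 4.18e-08). The pathway's MAP kinase gene rl went the other way, with 35.0, 28.6 and 28.8 CPM in IP and 108, 122 and 120.4 CPM in Input and no overlap (-1.93 ± 0.09, adjusted p = 1.53e-07). Ras85D, the Ras GTPase itself, fell by 0.57 and the ETS transcription factor gene pnt fell by 0.50.

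Notch and Hedgehog genes were also called in both directions, as were genes of every list. In the Notch list 9 of 16 genes were called higher and 4 lower, with a median of 0.27. The receptor gene N was higher by 1.36, the ubiquitin ligase gene neur by 1.37, the coactivator gene mam by 1.12 and the glycosyltransferase gene fng by 0.98, while Su(H), the DNA-binding partner of the receptor, had a log2 fold change of -0.997. Su(H) had 27.3, 19.8 and 21.8 CPM in IP and 45.6, 46.3 and 45.0 CPM in Input, without overlap (edgeR adjusted p = 4.68e-05). Its IgG values of 39.9, 13.6 and 32.8 CPM overlapped IP. Of 19 genes of the Hippo growth control pathway 7 were higher and 4 lower. In the JAK/STAT and Hedgehog list 9 of 17 were called higher and 6 lower, with a median of 0.49. The IgG over Input median of that list was 0.41, with 1 higher and 4 lower. The cytokine receptor gene dome was higher in IP, with 450.4, 507 and 484 CPM in IP and 233, 232 and 212 CPM in Input (1.09, adjusted p = 4.61e-07). Of the Hedgehog genes, the receptor ptc and the coreceptor ihog had log2 fold changes of 1.43 and 1.497, whereas smo, which carries the signal across the membrane, had -0.80 and the kinase fu -2.02. fu had 13.9, 10.9 and 9.09 CPM in IP and 47.6, 46.0 and 42.9 CPM in Input, the farthest fall of that list. In IgG fu had 22.3, 8.21 and 5.18 CPM, which overlapped IP.

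Genes for chromatin regulators were mostly higher in IP. Of 70 chromatin remodelers and histone modifiers 45 were called higher and 17 lower, with a median of 0.41 and pair medians of 0.36, 0.35 and 0.50. In IgG against Input the same list had 11 higher and 17 lower with a median of 0.02, and in IP against IgG 29 higher and 1 lower with a median of 0.42. After correction for exon length 8 of them were higher in IP than in IgG, against 70 of the 8789 genes tested. kis, a CHD-family remodeler, had 2244, 2222 and 2041 CPM in IP libraries, 1099, 1182 and 1220.1 CPM in IgG and 669, 737 and 650.2 CPM in Input (IP over Input 1.66 ± 0.07, edgeR adjusted p = 7.42e-08). Mi-2, the ATPase of the NuRD complex, had 1452, 1472 and 1408 CPM in IP, 652, 725 and 684 CPM in IgG and 468, 475 and 440.2 CPM in Input (1.64 ± 0.05, adjusted p = 3.09e-08). For both genes the 3 groups were separate and in the order IP, IgG, Input. nej, the fly CBP acetyltransferase, and brm, the SWI/SNF ATPase, were higher by 1.54 and 1.32.

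Among the 17 chromatin genes called lower were both erasers of histone methyl marks and parts of the dosage compensation complex, which in flies acts on the male X chromosome. Utx, a demethylase of histone H3 lysine 27, had 35.2, 44.0 and 44.5 CPM in IP and 149, 149 and 148 CPM in Input (-1.85 ± 0.09, edgeR adjusted p = 1.77e-07). Kdm4B, another histone demethylase, had 1.97, 2.02 and 1.14 CPM in IP and 10.6, 9.68 and 9.58 CPM in Input (-2.55 ± 0.25, adjusted p = 1.43e-05), and no count in any IgG library, and 5718 of its 6742 exonic bases are shared with another gene on its strand. msl-1, a scaffold of the dosage compensation complex, had 75.4, 73.1 and 60.6 CPM in IP, 107, 83.6 and 87.4 CPM in IgG and 297, 291 and 286 CPM in Input (-2.07 ± 0.08, adjusted p = 5.25e-08). Its IP and IgG values were close together and far under Input. The acetyltransferase mof was lower too (-1.19), and the helicase mle and the ligase msl-2 of the same complex were called higher, by 0.80 and 0.71.

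In the general transcription machinery, as in every list, genes were called in both directions. The shares over all genes were 28.5% higher and 30.8% lower. Of 28 RNA polymerase subunit genes 7 were called higher and 5 lower, with 3 lower without Input replicate 1 or 2, and of 13 Integrator genes 5 were higher and 4 lower. Of 16 TFIID genes 8 were called higher and 1 lower (median 0.26), or 2 lower with the replicate block and 2 lower with a median of 0.17 without IP replicate 3. The IgG over Input median of TFIID was 0.25, with 3 higher and 1 lower. Taf1, the largest subunit, had 329, 303 and 313 CPM in IP and 127, 134 and 123.5 CPM in Input (1.29 ± 0.05, edgeR adjusted p = 7.42e-08). Taf3 had 76.2, 74.6 and 74.6 CPM in IP and 241, 251 and 257 CPM in Input (-1.74 ± 0.05, adjusted p = 2.16e-08). Both genes were tight within groups and did not overlap between them, in opposite directions. Of 28 Mediator genes 15 were called higher and 8 lower (median 0.29). Their IgG over Input median was 0.30, with 4 higher and 3 lower. The kinase-module genes skd and kto were higher by 1.35 and 1.196, while MED14, MED24 and MED23 had log2 fold changes of -1.27, -1.36 and -1.69. skd had 1039, 1052 and 1162 CPM in IP and 411, 449.8 and 413 CPM in Input (adjusted p = 1.68e-07), and MED23 had 6.29, 10.6 and 12.4 CPM in IP and 32.8, 31.96 and 29.7 CPM in Input (adjusted p = 7.14e-05).

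The CCT chaperonin folds actin and tubulin in a ring of different subunits, and 7 of its genes were tested here. CCT1, CCT2, CCT3, CCT4, CCT6 and CCT7 were called higher, between 0.22 and 0.65 on the log2 scale, and CCT5 was lower. Over Input, IgG also had 6 of the 7 called higher and 1 lower, with a median of 0.36 beside 0.39 in IP. Between IP and IgG 0 of the 7 were called. CCT6 had 774, 796 and 850.3 CPM in IP libraries, 668, 859.8 and 768 CPM in IgG and 516, 516 and 506 CPM in Input, with IP and IgG overlapping and both above Input (0.65 ± 0.05, edgeR adjusted p = 4.54e-06). CCT5 had 149, 164 and 165 CPM in IP, 230.5, 196 and 216 CPM in IgG and 475, 443 and 431 CPM in Input, with no overlap between any of the groups (-1.50 ± 0.06, adjusted p = 7.42e-08).

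The insulin and TOR list, which ties growth to nutrients, had 12 of 22 genes called higher and 8 lower, with a median of 0.20. The scaffold genes of the 2 TOR complexes lay at its ends. rictor, the scaffold of TOR complex 2, had 453, 439 and 495 CPM in IP, 254, 266 and 282 CPM in IgG and 109, 112 and 101 CPM in Input (2.11 ± 0.06, edgeR adjusted p = 2.32e-08). raptor, the scaffold of TOR complex 1, had 15.1, 14.4 and 14.3 CPM in IP, 5.997, 15.7 and 26.7 CPM in IgG and 126, 114 and 96.6 CPM in Input (-2.95 ± 0.10, adjusted p = 3.57e-08). rictor was highest in IP with 3 separate groups, whereas the IP values of raptor lay within the range of IgG, and both groups lay under the lowest Input library. Of raptor's 7097 exonic bases 1669 are shared with another gene on its strand (chromosome X, 6082634 to 6090201 in dm6), and how reads there were assigned is not given in the sources used here. The shared kinase gene mTor was higher by 0.95.

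In the machinery of mRNA decay and storage 12 of 37 genes were called higher and 18 lower, with a median of -0.22, or -0.14 without IP replicate 3. Not1, the scaffold of the CCR4-NOT deadenylase, had 1726, 1737 and 1988 CPM in IP and 700.5, 735 and 643 CPM in Input (1.39 ± 0.08, edgeR adjusted p = 3.54e-07). me31B and tral encode partners in the same repressive particles of the germline and went opposite ways. tral had 5490.2, 6405 and 7402 CPM in IP and 3249, 3359 and 3329 CPM in Input (0.95 ± 0.10, adjusted p = 2.25e-05), and me31B had 1379.9, 1529 and 1623 CPM in IP and 3011, 3054 and 3235 CPM in Input (-1.04 ± 0.07, adjusted p = 1.52e-06). Neither gene's groups overlapped. Patr-1, a decapping activator, had 75.2, 62.4 and 60.0 CPM in IP, 74.8, 49.1 and 64.2 CPM in IgG and 237, 237 and 228 CPM in Input (-1.83 ± 0.08, adjusted p = 1.09e-07), with IP and IgG overlapping.

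Splicing and nuclear pore genes were likewise called in both directions, beside 28.5% higher and 30.8% lower over all genes. Of 36 core spliceosome genes 13 were called higher and 12 lower, and of 29 nuclear pore genes 14 were higher and 11 lower. The pore count of genes called lower was 7 without Input replicate 1. Prp8, the large scaffold at the heart of the spliceosome, had 1508, 1482 and 1389 CPM in IP and 450.3, 460.1 and 413 CPM in Input (1.72 ± 0.06, edgeR adjusted p = 4.2e-08). Sf3b3 had 8.81, 5.72 and 3.16 CPM in IP and 108, 99.3 and 88.7 CPM in Input (-4.08 ± 0.36, adjusted p = 0.000189), and 2508 of its 4329 exonic bases are shared with another gene on the same strand (chromosome 3L, 826720 to 833385). Mgtor, which forms the nuclear basket, was higher by 1.06, and Nup93-2 had 11.9, 10.7 and 14.6 CPM in IP and 41.4, 37.2 and 37.9 CPM in Input (-1.65, adjusted p = 2.73e-06).

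**Figure D3:**
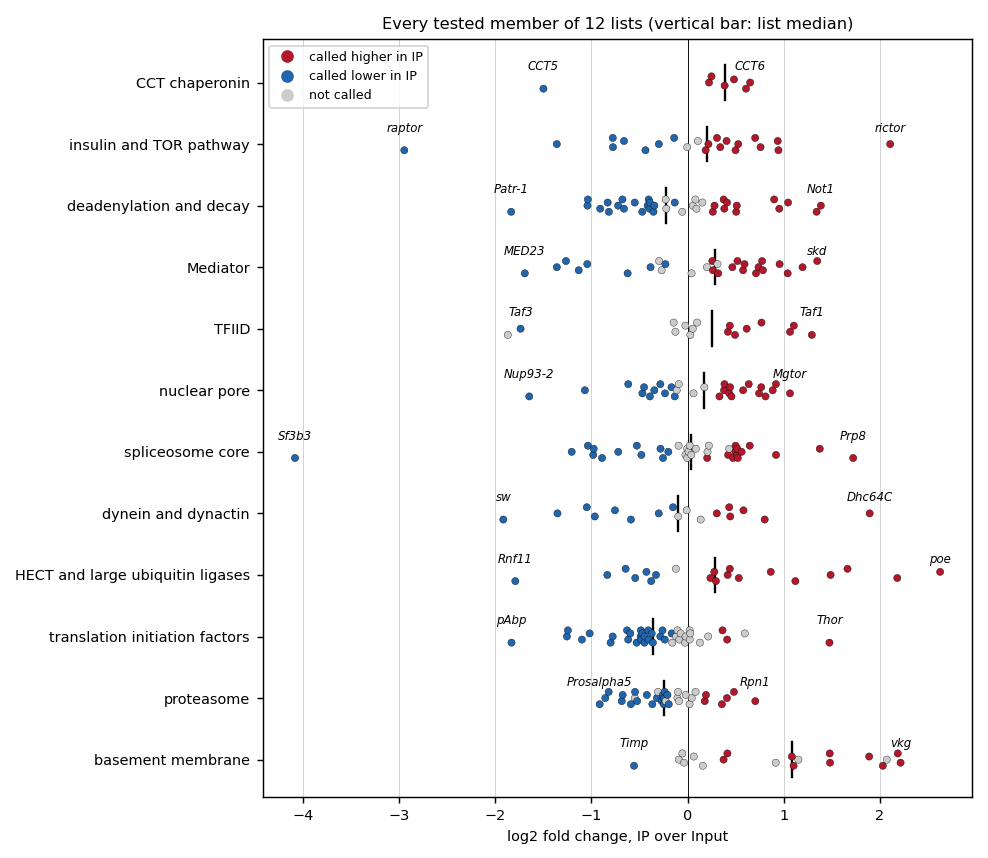
Log2 fold change of IP over Input (horizontal axis) for every tested member of 12 gene lists (1 row each), coloured by whether the gene was called higher, called lower or not called, with a bar at the list median and the names of the called genes at each end. rictor at 2.11 and raptor at -2.95 lie in 1 row, and CCT5 at -1.50 lies apart from the other CCT genes.

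Genes for very large proteins of the cytoskeleton and the ubiquitin system were among the most over-represented. Of 19 spectrin and giant linker genes 12 were called higher and 4 lower, with a median of 0.93 in IP over Input and 0.54 in IgG over Input. Without IP replicate 1 the IP over Input median was 0.54. alpha-Spec, the alpha subunit of the membrane skeleton, had 533, 532 and 504 CPM in IP libraries, 364, 359 and 405 CPM in IgG and 148, 141 and 115.04 CPM in Input, with 3 separate groups (1.95 ± 0.09, edgeR adjusted p = 1.15e-07). Its partner beta-Spec was higher by 1.39 and the microtubule-actin linker gene shot by 1.05. Msp300, a nesprin that ties nuclei to the cytoskeleton and is also a muscle protein, had 108, 73.8 and 50.2 CPM in IP, 112, 81.5 and 35.7 CPM in IgG and 18.3, 18.0 and 14.1 CPM in Input (2.20 ± 0.30, adjusted p = 0.00103). IP replicate 1 was the highest and IP replicate 3 the lowest, as for the summed muscle markers, and the part of muscle RNA in its value was not tested. Zyx, a focal adhesion protein, fell by 1.43 and the adducin gene hts fell by 0.79.

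In the adhesion and polarity list 19 of 32 genes were called higher and 5 lower (median 0.32). kug, an atypical cadherin that steers follicle cell migration, had 507, 499 and 529.7 CPM in IP and 145, 154 and 131 CPM in Input (1.83 ± 0.07, edgeR adjusted p = 4.18e-08). The E-cadherin gene shg had 149.7, 155 and 128 CPM in IP and 209.9, 209 and 192 CPM in Input (-0.50, adjusted p = 0.000258). The 2 cadherins moved in opposite directions, each without overlap of the groups. Among motors, the dynein heavy chain gene Dhc64C had 1002, 948 and 752 CPM in IP and 255, 265 and 205.1 CPM in Input (1.89 ± 0.13, adjusted p = 2.38e-06), while the intermediate chain gene sw had 10.8, 11.6 and 7.50 CPM in IP and 36.8, 36.9 and 38.7 CPM in Input (-1.92 ± 0.15, adjusted p = 3.72e-06). In IgG sw had 2.59, 7.06 and 6.16 CPM, under every IP value. The light chain gene ctp had a log2 fold change of -1.35, and the kinesin heavy chain gene Khc 1.12.

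Among HECT-type and other large ubiquitin ligases 12 of 20 genes were called higher and 7 lower (median 0.29). poe, a giant ligase of the UBR family, had 1576, 1642 and 1528 CPM in IP, 943, 1126 and 984 CPM in IgG and 261, 274 and 231 CPM in Input (2.63 ± 0.07, edgeR adjusted p = 2.16e-08). HERC2 and HUWE1, which encode large HECT-domain ligases, were higher by 2.18 and 1.66, with no overlap between IP and Input for either. The E2 enzymes, which hand ubiquitin to ligases and are mostly small, ran the other way, with 2 of 13 called higher and 7 lower (median -0.38). The number called higher varied between 1 and 3 when single libraries were left out, changing without IP replicates 1, 2 or 3 and without Input replicates 1 or 2. eff, the E2 enzyme with the highest counts, had 346, 346 and 357 CPM in IP, 638, 571 and 530.3 CPM in IgG and 1089, 1119 and 1142 CPM in Input (-1.68 ± 0.05, adjusted p = 2.16e-08). All groups of poe and eff were separate. The larger rise of the 2 E2 genes called higher was that of Bruce, an unusually large member of the family, with 701, 649 and 550.2 CPM in IP and 214, 228 and 188 CPM in Input (1.59, adjusted p = 6.72e-07).

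**Figure D4:**
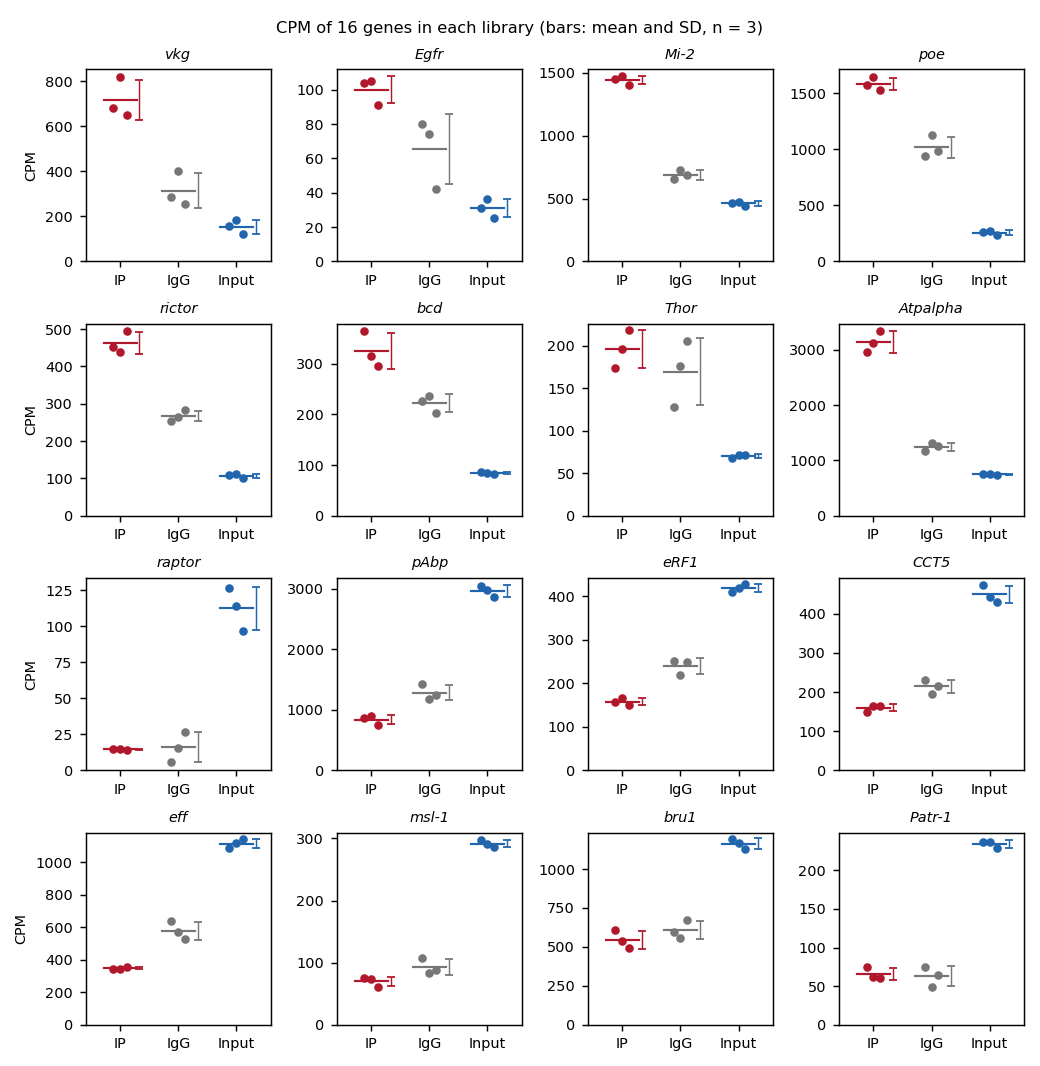
CPM (vertical axes, from 0) of 16 genes in each IP, IgG and Input library, 1 panel per gene, with points for libraries, a line at the mean and a bar of ± 1 SD (n = 3). The 8 genes in the upper rows lie higher in IP than in Input and the 8 in the lower rows lie lower, and for Thor, raptor, bru1 and Patr-1 the IP and IgG points overlap.

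Genes for translation factors were mostly lower in IP, whereas of 19 aminoacyl-tRNA synthetase genes 6 were higher and 7 lower. Of 12 elongation and release factor genes 8 were called lower and 1 higher, with the lowest median of the 50 lists (-0.50, with -0.39, -0.52 and -0.65 in pairs 1, 2 and 3). In IgG against Input 4 of them were called higher and 4 lower with a median of 0.03, and in IP against IgG 8 were lower with a median of -0.46. eRF1, which recognises stop codons, had 156, 167 and 151 CPM in IP libraries, 252, 219 and 249 CPM in IgG and 409, 419 and 428 CPM in Input, in 3 separate groups (-1.41 ± 0.05, edgeR adjusted p = 4.64e-08). Its partner eRF3 had a log2 fold change of the same sign (-1.36 ± 0.07, adjusted p = 2.17e-07). eEF2, the translocation factor, had 2514, 2559 and 2683 CPM in IP, 3150, 2899 and 3362 CPM in IgG and 6218, 6209 and 5828 CPM in Input (-1.24 ± 0.06, adjusted p = 1.89e-07). Its difference between IP and IgG was not called (-0.25, adjusted p = 0.0687). The 3 genes were lower in every IP library than in any Input library. eEF1gamma fell by 0.38 and Rack1, a protein of the small ribosomal subunit, fell by 0.41, whereas Tctp had 1641, 1651 and 1651 CPM in IP and 1626, 1625 and 1699 CPM in Input, which overlapped (adjusted p = 0.922). The only gene called higher, eEF1delta, had a log2 fold change of 0.24 (adjusted p = 0.0331). Its values were 0.24 without IP replicate 2, 0.17 without IP replicate 3, 0.20 without Input replicate 1 and 0.22 without Input replicate 2, with adjusted p of 0.091, 0.093, 0.11 and 0.088.

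Among 41 translation initiation factor genes 25 were called lower and 3 higher, with a median of -0.36 in IP over Input and -0.25 in IgG over Input. pAbp, the cytoplasmic poly(A)-binding protein, had 864, 894 and 747 CPM in IP libraries, 1425, 1179.9 and 1248 CPM in IgG and 3049.8, 2976 and 2863 CPM in Input, in 3 separate groups (-1.83 ± 0.08, edgeR adjusted p = 7.69e-08). eIF1, which scans for the start codon, and eIF2alpha, the subunit of eIF2 that stress kinases phosphorylate, had log2 fold changes of -1.24 and -1.10. The genes called higher were Thor, NAT1 and eIF2Bdelta. Thor, the repressor 4E-BP that sequesters the cap-binding protein, had 173, 196 and 218 CPM in IP, 128, 176 and 206 CPM in IgG and 67.6, 71.5 and 71.7 CPM in Input (1.48 ± 0.08, adjusted p = 3.96e-07), with IP and IgG overlapping. NAT1, a relative of the scaffold eIF4G, had 1681, 1568 and 1723 CPM in IP and 1252, 1262 and 1214 CPM in Input (0.41, adjusted p = 0.000143).

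Because pyrimidine-rich starts mark many mRNAs of the translation machinery, 30-base windows around annotated starts were read from the RefSeq release 6 genome (dm6), 10 bases before the start and 20 from it. The windows of the abundant genes that were higher and lower in IP are shown with the longest run of C and T in capitals, together with a pair of elongation list genes that have a long run.
Hsc70-4 (higher in IP, chr3R:15243146-15243175, plus strand): cccactcactgcagtcacagtctaCTTTCg
tral (higher in IP, chr3L:12515049-12515078, plus strand): gtatgcatcgttcaTTTTCgacgggtaggt
dhd (higher in IP, chrX:5312161-5312190, plus strand): cccaCCCCCCaacacactcggttggctttc
Hsp83 (higher in IP, chr3L:3192959-3192988, plus strand): gtaatgTTTTaagcaatcccagtgggcttt
eEF2 (lower in IP, chr2L:21682097-21682126, minus strand): tgcagcgcctcgCTCTTTCCTgtcgaaacg
me31B (lower in IP, chr2L:10239331-10239360, plus strand): catcagaaaTTTgtattattgatagcatgt
Rack1 (lower in IP, chr2L:7827227-7827256, minus strand): gaaccggaactgCCTCTTTTTCTgccagct
smg (lower in IP, chr3L:8997970-8997999, minus strand): cgaTTTTTgttccagcactagcaacgctgc
eEF1gamma (lower in IP, chr3R:29220162-29220191, plus strand): ctgcagccctgtttccgTCCCTTCTCTTCT
Tctp (not called in IP, chr3R:11210237-11210266, plus strand): gccaTTTTTTCTCgctcattctttttgctg

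Of the 8 genes chosen for abundance outside chromosome arm 2R only eEF2 and Rack1, both lower in IP, had a run of at least 8 pyrimidines in the window. Such a run, of any 8 letters that are C or T, was read on the strand that matches the mRNA. It could lie anywhere in the window, also before the annotated start. It was found in 5.70% of the 8251 tested genes with a RefSeq start and in 72.8% of 81 cytoplasmic ribosomal protein genes. Among translation factors it was found in 6 of 12 elongation and release factor genes and in 5 of 41 initiation factor genes. Outside the ribosomal protein, mitochondrial and eggshell sets, 125 of 403 genes with the run were called higher and 130 lower, with a median log2 fold change of 0.01, against 0.02 for the 7680 genes without it. The stricter form, a start at C followed by at least 5 pyrimidines, was met by 53 genes (0.642%). It was met by only 10 of the 81 cytoplasmic ribosomal protein genes (12.35%) and 0 of 12 elongation and release factor genes, so it misses most of these at annotated starts. Of the 43 outside those sets, 13 were called higher and 15 lower (median -0.04). Tctp, with a run of 9, did not pass the test, and eEF1gamma, with a run of 13, was lower. Hsp83 and Hsc70-4 are chaperone genes and dhd encodes a thioredoxin of the female germline. dhd had 5645, 5256 and 6496 CPM in IP and 2709, 2404 and 2939 CPM in Input without overlap (1.11, edgeR adjusted p = 7.1e-06). In IgG dhd had 4875, 5005 and 5497 CPM, which overlapped IP. Hsp83 was higher by only 0.21 (adjusted p = 0.0218), and was 0.16 without IP replicate 1, 0.19 without Input replicate 2 and 0.20 without Input replicate 3, with adjusted p of 0.058, 0.10 and 0.073. smg encodes a repressor of maternal mRNAs and had a log2 fold change of -0.50 (adjusted p = 3.43e-05).

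Other housekeeping lists with more members lower than higher concerned protein turnover, RNA processing and the endoplasmic reticulum. Of 34 proteasome genes 18 were called lower and 6 higher (median -0.24), and in IgG against Input 6 were higher and 1 lower. Prosalpha5, a ring subunit of the core particle, had 89.7, 81.1 and 93.7 CPM in IP, 139, 122 and 167 CPM in IgG and 167, 165 and 165 CPM in Input (-0.91 ± 0.06, edgeR adjusted p = 1.34e-06). Rpn1, a scaffold of the regulatory particle, had 577, 625 and 678 CPM in IP and 396, 389 and 365 CPM in Input (0.70 ± 0.07, adjusted p = 1.34e-05). Each differed without overlap, in opposite directions. Of 9 Sm and LSm genes, which form the cores of splicing particles, 6 were lower and 1 higher (median -0.40), with SmE at -1.02 and SmF at 0.51. Of 38 genes for nucleolar ribosome assembly 19 were lower and 9 higher (median -0.17).

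Of 34 genes for entry into the endoplasmic reticulum and glycosylation 17 were lower and 6 higher (median -0.14). The calnexin gene Cnx99A, a chaperone for glycoproteins, had 139, 133 and 122 CPM in IP, 164, 150.0 and 128 CPM in IgG and 309, 309 and 311 CPM in Input (-1.24 ± 0.05, edgeR adjusted p = 1.09e-07), with IP and IgG overlapping well under Input. Of 27 lipid synthesis and storage genes 13 were lower and 4 higher, a number that was 7 without IP replicate 3 and 8 with the replicate block. Agpat2, an acyltransferase of phospholipid and fat synthesis, had a log2 fold change of -0.94, and Lsd-2, the lipid droplet coat protein perilipin, 0.35. Lpin, a phosphatidate phosphatase, had 147, 165 and 156 CPM in IP, 77.4, 62.5 and 92.2 CPM in IgG and 101, 105 and 88.1 CPM in Input (0.67, adjusted p = 3.9e-05), with IP above Input and IgG overlapping the lower end of Input. In glycolysis 4 of 12 genes were higher and 6 lower, with the aldolase gene Ald1 at -0.68 and the mutase gene Pglym78 at 0.59.

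Genes of the germline were called higher and lower in equal numbers, where all genes had 28.5% higher and 30.8% lower. Among the 12 germline markers 5 were called higher and 5 lower, and of 35 genes for oocyte RNA localization and its control 12 were higher and 12 lower. With the correction for exon length 3 germline markers were higher and 6 lower, and 7 localization genes were higher and 23 lower (median -0.32). Over all 8789 genes that correction gave 2191 higher and 2952 lower (median -0.05). bcd, the localized mRNA that patterns the embryo's front, had 365, 315 and 295 CPM in IP libraries, 227, 237 and 202 CPM in IgG and 85.5, 85.0 and 82.7 CPM in Input, in 3 separate groups (1.94 ± 0.08, edgeR adjusted p = 5.66e-08). osk, the localized mRNA that sets the rear and the germ plasm, had 1359, 1199.9 and 1005 CPM in IP, 1364, 1373 and 1147 CPM in IgG and 1585, 1528 and 1392 CPM in Input (-0.34 ± 0.10, adjusted p = 0.0147). Its IP and Input values did not overlap, but the call was lost without IP replicate 2 (-0.35, adjusted p = 0.053) and without Input replicate 1 (-0.30, adjusted p = 0.065). Another gene on the same strand shares 2251 of the 2869 exonic bases of osk. grk, which encodes the oocyte's EGFR ligand, had 37.6, 35.2 and 25.6 CPM in IP and 21.8, 20.5 and 20.2 CPM in Input (0.65, adjusted p = 0.00251).

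Regulators of the germline were also called in both directions. bru1, a translational repressor, had 607, 539 and 490.1 CPM in IP, 596, 559 and 671 CPM in IgG and 1194, 1168 and 1126 CPM in Input (-1.10 ± 0.08, edgeR adjusted p = 1.53e-06). sqd, an hnRNP of grk localization, had 979, 1040.5 and 1005 CPM in IP and 1801, 1894 and 1845 CPM in Input (-0.88, adjusted p = 6.91e-07). bam, the switch for germline stem cell differentiation, had 12.9, 11.3 and 8.15 CPM in IP, 18.8, 11.6 and 20.7 CPM in IgG and 42.0, 45.8 and 45.4 CPM in Input (-2.05 ± 0.15, adjusted p = 2.55e-06). For all 3 the IP values lay wholly under Input. pum, a translational repressor with a role in stem cells, was higher, with 553, 556 and 699.5 CPM in IP and 322, 344 and 332 CPM in Input (0.85, adjusted p = 2.28e-05).

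Genes of the piRNA pathway, which silences transposons in the germline, were lower more often than higher, at 17 and 4 of 35 tested with a median of -0.21. Single members ran from -4.24 to 0.73, and the genes named below do not include the lowest. In IgG against Input 12 were lower and 1 higher with a median of -0.37. rhi, a chromatin protein that marks piRNA clusters, had 12.2, 10.7 and 11.8 CPM in IP and 32.2, 32.6 and 34.2 CPM in Input (-1.52 ± 0.10, edgeR adjusted p = 8.62e-07). AGO3 and the helicase gene spn-E, which act in piRNA amplification, had log2 fold changes of -1.07 and -1.02, without overlap of IP and Input. IgG had 184, 191 and 116 CPM of AGO3 and 155, 86.5 and 92.9 CPM of spn-E, which overlapped IP for both. The Argonaute genes piwi and aub did not pass the test, with 250.0, 271 and 266 CPM in IP and 276, 284 and 266 CPM in Input for piwi (-0.08, adjusted p = 0.245) and 145, 169 and 158 CPM in IP and 158, 163 and 156 CPM in Input for aub (-0.02, adjusted p = 0.791).

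Membrane proteins of the oocyte and epithelium also diverged. yl, the yolk protein receptor of the oocyte, had 3256, 3405 and 3687 CPM in IP, 1753, 1968 and 2194 CPM in IgG and 1849.8, 1725 and 1513 CPM in Input (1.02 ± 0.08, edgeR adjusted p = 4.69e-06). The lipoprotein receptor gene LpR2 had 217, 220.2 and 218 CPM in IP and 374, 386 and 365 CPM in Input (-0.78, adjusted p = 5.05e-07), while the related LRP1 was higher by 1.38. All 3 receptors differed without overlap. Of 44 ion pump and transporter genes 10 were higher and 19 lower. Atpalpha, the catalytic subunit of the sodium pump, had 2958, 3122 and 3339.8 CPM in IP, 1170.5, 1309 and 1255 CPM in IgG and 754, 761 and 729 CPM in Input (2.07 ± 0.06, adjusted p = 2.32e-08).

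Long mRNAs were over-represented in IP. Of 417 tested genes with at least 8000 exonic bases 251 (60.2%) were called higher and 54 (13.0%) lower, with a median log2 fold change of 0.61. Of 1310 genes under 1000 exonic bases 257 were higher and 338 lower, with a median of -0.07. The 417 long genes took 9.38%, 9.28% and 9.14% of the counts in IP libraries 1 to 3, against 5.84%, 6.03% and 5.56% in Input libraries 1 to 3, without overlap. By coding length, an alternative added after the data were seen, 97 of 117 genes of at least 8000 coding bases were higher (82.9%) and 6 lower, with a median of 1.11. In IgG over Input the medians of the 2 long classes were 0.13 and 0.54. Exonic GC content ran the same way in smaller steps, with a median of -0.19 in the quintile of lowest GC and 0.16 in that of highest GC.

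**Figure D5:**
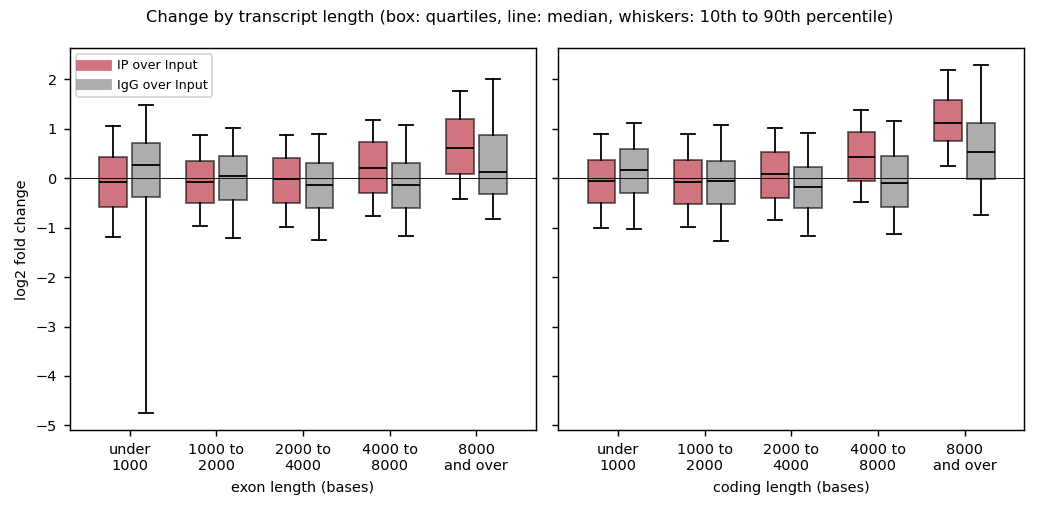
Log2 fold change (vertical axis) of IP over Input and IgG over Input for genes in 5 classes of exon length (left) and coding length (right), with boxes from the lower to the upper quartile, a line at the median and whiskers at the 10th and 90th percentiles. The IP over Input median is 0.61 for genes of at least 8000 exonic bases and 1.11 for those of at least 8000 coding bases.

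Several lists that were higher in IP are made of long genes, and their medians moved when a smooth curve of log2 counts on exon length was removed from each library. With this correction 2191 of the 8789 genes tested were called higher and 2952 lower, with a median of -0.05. The spectrin and giant linker list, with a median exon length of 10430.0 bases against 2093 for all genes, went to a median of 0.10 with 8 called higher and 8 lower. Msp300 had 0.10 (edgeR adjusted p = 0.32) and shot -0.37 after the correction. The chromatin list went to 0.09 with 31 higher and 22 lower, large ubiquitin ligases to -0.0086, and adhesion and polarity to -0.24. Notch went to 0.07 with 5 higher and 6 lower, and Hippo to -0.16 with 6 higher and 6 lower. The follicle cell markers kept a median of 0.89 with 8 of 9 called higher, basement membrane 0.71, EGFR and Ras 0.31, Mediator 0.33 and TFIID 0.30. The medians were -0.47 for elongation and release factors and -0.37 for initiation factors, of which 30 were then called lower. Other lists moved further down, with ion pumps and transporters at -0.29 and lipid synthesis and storage at -0.27. Pairs of genes with opposite directions in 1 complex or pathway also kept them, with rictor at 1.74 and raptor at -3.34, CCT6 at 0.67 and CCT5 at -1.47, and Taf1 at 0.91 and Taf3 at -1.92.

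IP and the IgG control pulldown are set against the same Input libraries and their folds are therefore given only side by side. IgG was above Input for 10.3% of the genes and below it for 16.6%, by the same test. In IP against IgG 700 genes were called (7.96%), with 419 (4.77%) higher and 281 (3.20%) lower. Of these 59.9% were higher, against 86.2% with scaling to library totals, which put the median of all genes at 0.22 in place of 0.03, and 28.3% with the length correction. In IgG against Input 38.4% of the called genes were higher, against 25.8% with library totals, which put the median of all genes at -0.14 in place of -0.01. Replicates of IgG differed more than those of IP, and the coefficient of variation between replicates that edgeR estimated was 0.596 for IP with IgG and 0.15 for IP with Input. Genes higher in IP than in IgG as well as Input included kis (IP over IgG 0.92, edgeR adjusted p = 0.000396), Mi-2 (1.098, adjusted p = 0.00035), nej (1.05, adjusted p = 0.00035), Prp8 (0.96, adjusted p = 0.000396), Col4a1 (1.09, adjusted p = 0.000654), kug (1.00, adjusted p = 0.000486) and yl (0.83, adjusted p = 0.00132). With the length correction the calls of kis (0.71, adjusted p = 0.097), nej (0.85, adjusted p = 0.0507), kug (0.79, adjusted p = 0.0608) and yl (0.62, adjusted p = 0.0891) were lost. For spi (-0.08, adjusted p = 0.812), neur (-0.04, adjusted p = 0.906), Thor (0.23, adjusted p = 0.482) and CCT6 (0.10, adjusted p = 0.605) IP and IgG overlapped. Genes lower in IP than in both included eff (-0.70, adjusted p = 0.0019), eIF1 (-0.86, adjusted p = 0.00136), pAbp (-0.59, adjusted p = 0.00869), eRF1 (-0.57, adjusted p = 0.0112) and Prosalpha5 (-0.67, adjusted p = 0.0293), whose call was lost with the length correction (-0.57, adjusted p = 0.0659).

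The single genes with the largest differences were often of unknown function or overlapped another gene. CG12592 had 122.8, 143 and 139 CPM in IP, 63.5, 81.0 and 102 CPM in IgG and 17.3, 20.02 and 21.6 CPM in Input (2.78 ± 0.10, edgeR adjusted p = 4.06e-08). Sdb had 104.3, 107 and 81.8 CPM in IP, 86.2, 87.4 and 73.1 CPM in IgG and 14.1, 17.6 and 13.2 CPM in Input (2.70 ± 0.14, adjusted p = 2.15e-07). The noncoding lncRNA:CR43264 had 88.4, 65.0 and 73.8 CPM in IP and 169, 238 and 99.5 CPM in IgG, against 8.48, 8.77 and 10.8 CPM in Input, so that it was higher still in the control pulldown (IP over Input 3.01, IP over IgG -1.13). The muscle genes bt and sls were also among the largest rises, but bt had 142, 68.9 and 23.3 CPM in IP and 16.01, 9.28 and 4.89 CPM in Input (2.95, adjusted p = 0.0433). IgG libraries 1 to 3 had 444, 472 and 64.8 CPM of bt and 187.5, 191 and 36.3 CPM of sls. Each of these lay above the IP library of the same number (bt IP over IgG -2.03, adjusted p = 0.204). The IP over Input value of bt was 3.47, 2.90 and 2.62 without Input replicates 1, 2 and 3, with adjusted p of 0.082, 0.14 and 0.12, and 2.20 without IP replicate 1 (adjusted p = 0.048). For sls the value was 3.42, 2.89 and 2.595 without Input replicates 1, 2 and 3, with adjusted p of 0.084, 0.14 and 0.11, and 2.01 without IP replicate 1 (adjusted p = 0.025).

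At the other end, alpha-Man-IIb, a mannosidase of N-glycan trimming, had 11.8, 12.2 and 7.83 CPM in IP, 34.5, 10.2 and 15.1 CPM in IgG and 107, 103.6 and 99.7 CPM in Input (-3.29 ± 0.15, edgeR adjusted p = 1.15e-07). CG33217 had 8.13, 10.3 and 7.65 CPM in IP, 35.5, 14.7 and 15.5 CPM in IgG and 70.6, 73.1 and 74.1 CPM in Input (-3.07 ± 0.12, adjusted p = 4.64e-08). Both were several times lower in every IP library than in any Input library. AspRS, an aspartyl-tRNA synthetase gene, had 2.52, 4.62 and 2.55 CPM in IP and 28.05, 27.6 and 26.7 CPM in Input (-3.09, adjusted p = 2.11e-06), and 1575 of its 2266 exonic bases lie opposite an exon of another gene. In IgG AspRS had 3.52, 1.79 and 8.25 CPM, which overlapped IP. CG5151 had 2.42, 2.16 and 2.04 CPM in IP and 25.97, 27.2 and 28.4 CPM in Input (-3.63, adjusted p = 4.18e-08), with 4355 of 7580 exonic bases shared with another gene on its strand. Of 69 tested genes that share at least 50% of their exonic bases on the same strand 19 were higher and 24 lower.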

How the data were processed

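Ovaries with the aramis::GFP::FLAG genotype gave 9 poly(A)-selected libraries after RNA immunoprecipitation, and the 3 IP and 3 Input libraries carry the comparison, with the 3 IgG libraries beside them. For each library the authors deposited whole-number counts over 17024 FlyBase gene IDs, without normalization. The submitters' processing notes name HISAT2 2.1.0, featureCounts 1.4.6 and the genome build dm6. The strand setting and the rule for overlapping genes are not given in the sources used here, so reads shared by overlapping genes could be lost or split.

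Groups and replicate numbers came from the sample titles. Counts were tested with edgeR 4.0.16 in R 4.3.3 (TMM scaling, robust quasi-likelihood test, two-sided) on the 6 libraries of each comparison, for the 8789 genes that passed edgeR's filter over all 9 libraries (minimum count 10), with Benjamini-Hochberg adjustment over all of them and a threshold of 0.05. CPM are TMM-scaled, errors are SD over 3 libraries, and SE are those of the log2 fold change. Deviations from the group means correlated between an IP library and the Input library of its number (r = 0.27, 0.29 and 0.39 across genes). The replicate numbers were therefore taken as pairs for the pair medians and for an alternative fit. The main fit, which gave the adjusted p in the Results, was unpaired. The fit with the replicate number as a block called 5512 genes, 5159 of them shared with the unblocked fit, and of the counts of the 50 lists moved only those of lipid synthesis and storage (8 higher, against 4), TFIID (2 lower, against 1) and the exocyst (1 higher, against 2) by over 1.5 times. Symbols, positions and exon lengths came from the Ensembl BDGP6.54 annotation, which named 16647 IDs, and start windows from the RefSeq release 6 genome. The length correction used a loess curve per library (span 0.3). The fits were tested on simulated counts.

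Members and lists were chosen with earlier results of these data known, and the lists hold 1356 genes, with 32 further names that did not match an ID. Genes were named by rule: the 10 largest rises and falls among genes averaging 10 CPM or more whose groups did not overlap, the most abundant member and the largest rise and fall of each list, the cell type markers, the abundant genes outside chromosome arm 2R with printed windows, and ais. Other members of lists were named after their values were seen. Alternatives were DESeq2 1.42.0, its size factors, library totals, other filters, all 9 libraries in 1 fit, the block, the length correction, removal of the feature with the malformed ID FBgn000003, a 2-fold threshold and each library left out. FBgn000003 took 5.89%, 14.6% and 7.89% of the counts of IgG libraries 1 to 3, 0.684% to 1.04% in IP and 0.0113% to 0.0612% in Input. Without it 5205 genes were called between IP and Input, 2359 between IgG and Input and 705 between IP and IgG. Coding length, a run of 8 pyrimidines, overlap classes and list counts without single libraries were added after seeing the data.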

Additional observations from a re-analysis of the deposited data

How the results depend on the processing

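The count of genes called between IP and Input was 2778 when all 9 libraries shared 1 fit and 1389 at a 2-fold threshold, and ran from 4538 to 5441 when 1 library was left out, against 5206. It stayed within 1.5 times under the other alternatives, including DESeq2 (5386), library totals (5257) and the length correction (5143). Between IgG and Input the count ran from 446 to 3306 when 1 library was left out, against 2364. Between IP and IgG 700 genes were called, against 1376 with DESeq2, 1193 with library totals, 2014 with all 9 libraries in 1 fit, 247 with the length correction and 295 to 930 when 1 library was left out. Same-numbered libraries of the IgG comparisons deviated together only weakly (r = 0.094, 0.090 and 0.19 with Input, 0.071, 0.036 and 0.19 with IP). There the replicate block gave 1959 genes between IgG and Input and 1264 between IP and IgG, and each library did not correlate best with its own number in every case. Of the named genes, the block between IP and Input changed the calls of Hrb27C and elav.

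With library totals 9 list medians just under 0 turned positive, to no more than 0.093, among them oocyte RNA localization (0.018) and Rab GTPases (0.00057). The 1-count filter turned those of testis markers (0.40), DNA replication (-0.0029) and core spliceosome (-0.0033). With the length correction, and with it and the block, the medians were -0.0086 and -0.011 for large ubiquitin ligases, -0.20 and -0.20 for RhoGAPs and RhoGEFs, -0.16 and -0.235 for Hippo, and -0.245 and -0.249 for adhesion and polarity. The median of centrosome and spindle (-0.000398) also turned under several settings. Leaving out 1 library turned 8 list medians, among them muscle markers (-0.11, against 0.92) and Integrator (0.0047) without IP replicate 1, and ion pumps (0.068) and deubiquitinases (-0.040) without IP replicate 3. The length correction, without and with the block, turned Fas3 (-0.038 and -0.044), klar (-0.43 and -0.43), tud (-0.14 and -0.14), orb (-0.27 and -0.27), Nup358 (-0.094 and -0.094), cic (-0.57 and -0.57) and Fs(2)Ket (-0.021 and -0.022), and the correction with the block turned Klp10A (-5.12e-05). The share of genes of at least 8000 bases called higher was 60.2% by exon length and 82.9% by coding length. The cause of these changes was not tested, other than that the length correction removes by construction what follows length. The alternative of protein length was not run. IgG replicates spread widely, which limits what can be called between IP and IgG.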
